A study of Mus musculus with 9 samples.

Results

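The nuclear-encoded oxidative phosphorylation genes are the genes of the cell nucleus that code for subunits of the mitochondrial respiratory chain and the ATP synthase. They were chosen by name: protein-coding genes whose mouse symbol begins with Nduf followed by a, b, c, s or v and a number, with Uqcr, with Cox and a number between 4 and 8, or with Atp5, and the genes Sdha, Sdhb, Sdhc and Sdhd. The rule gave 85 of the 54838 gene identifiers in the table, under 84 symbols, because Atp5o has a pair of identifiers, one of which had no counts. The rule uses names and gene type alone, but it was chosen with earlier results of these data known. Their RNA was counted in 9 mouse libraries: 3 labelled overlap, 3 labelled c-fos and 3 labelled mCHerry. The labels enter these names as genotypes and give no strain, age, treatment or animal for any library. The design text divides the cells into CRD-labelled, His-labelled and doubly labelled ones, and the title speaks of visceral pain, itch and neurons of the basolateral amygdala marked by Fgf2 and Notch2. How CRD and His map to c-fos and mCHerry is not stated. As background, c-fos is a transcription factor that neurons make within minutes of strong activity, and mCherry is a red fluorescent protein used as a tag. Libraries were made by Smart-3SEQ, which reads the 3′ ends of polyadenylated RNA, from cells cut out of fixed frozen tissue with a laser.

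Oxidative phosphorylation works as a chain in the inner mitochondrial membrane. Complex I, the NADH dehydrogenase, and complex II, the succinate dehydrogenase, pass electrons to ubiquinone, complex III passes them on to cytochrome c, and complex IV hands them to oxygen. Complexes I, III and IV pump protons as they do so, and complex V, the ATP synthase, lets the protons flow back to make ATP. Each complex is built from many subunits, and all except complex II combine nuclear-encoded subunits with a few encoded by mitochondrial DNA. Neurons draw most of their ATP from this pathway, much of it to restore ion gradients after firing.

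Some of the genes held promoter motifs, which the naming rule did not use. Windows of 250 bases before to 50 bases after the transcription start were matched for 68 of the genes in RefSeq (build GRCm38.p6) and for 17491 protein-coding genes in all. Motifs were searched on both strands. GCATGCGC, the core of the motif of NRF1, a regulator of respiratory genes, stood in 14.7% of the 68 genes, against 3.93% of all protein-coding genes. CCGGAAG, the motif of the ETS factors, which include GABP, stood in 23.5% of the genes, against 12.9% of all. AAGATGGC, bound by YY1, stood in 14.7%, against 3.57% of all, and TCAAGGTCA, bound by the estrogen-related receptors, in 2.94%, against 0.377% of all. Among the stretches before the start that were listed, the YY1 motif stood in that of Atp5j only. Most of its matches thus lay at or after the start. At least 1 of the 4 motifs was found in 31 of the 68 genes, 45.6%, against 19.0% of all protein-coding genes. These are matches of letters and no evidence of binding. For 1 gene each of complexes I, II, IV and V described below, a stretch of 100 bases is printed to show such matches, with the motif in capitals. In bases before the start, it runs from 130 to 31 in Ndufa11 and from 126 to 27 in Sdhb. It runs from 100 to 1 in Cox6a1 and from 250 to 151 in Atp5l. The NRF1 core reads in both directions in Ndufa11, where the matches on the 2 strands overlap, and forwards in Sdhb. In Cox6a1 the ETS motif stands in reverse, and in Atp5l the NRF1 core forwards is followed by the ETS motif in reverse. The NRF1 core of Cox6a1, with matches at 162 and 160 bases before the start, lies outside its printed stretch.
Ndufa11, chr17:56717632-56717731, plus strand: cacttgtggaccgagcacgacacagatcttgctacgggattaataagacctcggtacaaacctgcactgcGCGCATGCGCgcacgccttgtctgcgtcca
Sdhb, chr4:140961145-140961244, plus strand: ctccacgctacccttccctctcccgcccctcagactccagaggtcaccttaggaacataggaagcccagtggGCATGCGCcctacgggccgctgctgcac
Cox6a1, chr5:115348959-115349058, minus strand: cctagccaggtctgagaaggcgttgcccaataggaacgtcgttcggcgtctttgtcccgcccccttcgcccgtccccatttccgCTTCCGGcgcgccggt
Atp5l, chr9:44920893-44920992, minus strand: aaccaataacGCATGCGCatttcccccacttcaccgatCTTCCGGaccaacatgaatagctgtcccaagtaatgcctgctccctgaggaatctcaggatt

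Total counts per library ran from 90091 to 429317, with the lowest in overlap 1. The label names spermatocytes, whose markers were near absent: Sycp1, Spo11 and Tdrd1 had no counts, and the other 7 of the 10 genes listed had at most 78 counts over all libraries. All 5 neuronal markers listed had counts in every library. Libraries mCHerry 3 and overlap 1 stood apart, with 1864 and 1980 counts in 4 pancreatic islet genes, insulin among them, against 100 to 334 in the other 7 libraries. TMM scaling, which sets libraries to a common level from their shared genes, gave mCHerry 3 a factor of 0.650, against 0.969 to 1.165 in the other 8. In TMM-scaled CPM, counts scaled to a common total and by this factor, the limit of 3 counts that a count of 0 allows lay between 8.08 in mCHerry 2 and 39.2 in overlap 1. On this scale mCHerry 3 is therefore raised more than any other library. Fold changes without it are given for Sdhc, Ndufs1 and Ndufa9, but not for every result in which it is high. In bulk samples such as these, fewer cells of a type and less RNA per cell cannot be told apart.

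The 85 genes held 10069 of the 2199270 counts in all. Their share of a library was 0.431% ± 0.0219 in overlap, 0.413% ± 0.0908 in c-fos and 0.486% ± 0.0352 in mCHerry (SD, n = 3 each). Counts were thin: 8 genes had none, 13 had between 1 and 9 over all 9 libraries, 64 had 10 or more and 22 had 100 or more. An overlap library held counts of 50, 47 and 47 of the genes, a c-fos library of 41, 65 and 68, and an mCHerry library of 51, 58 and 52. At an equal depth of 90091 counts the expected numbers were 43.1 ± 6.36 in overlap, 47.0 ± 7.27 in c-fos and 43.8 ± 1.84 in mCHerry, so the groups were not separated by how many subunits were seen. Complex I held 4557 of the counts, complex V 3035, complex IV 1658, complex III 538 and complex II 281. The 8 genes without counts were Ndufb3 and Ndufs5 of complex I, Cox6b2, Cox8b, Cox8c and Ndufa4l2 of complex IV, and Atp5s and the second identifier of Atp5o of complex V.

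**Figure D1:**
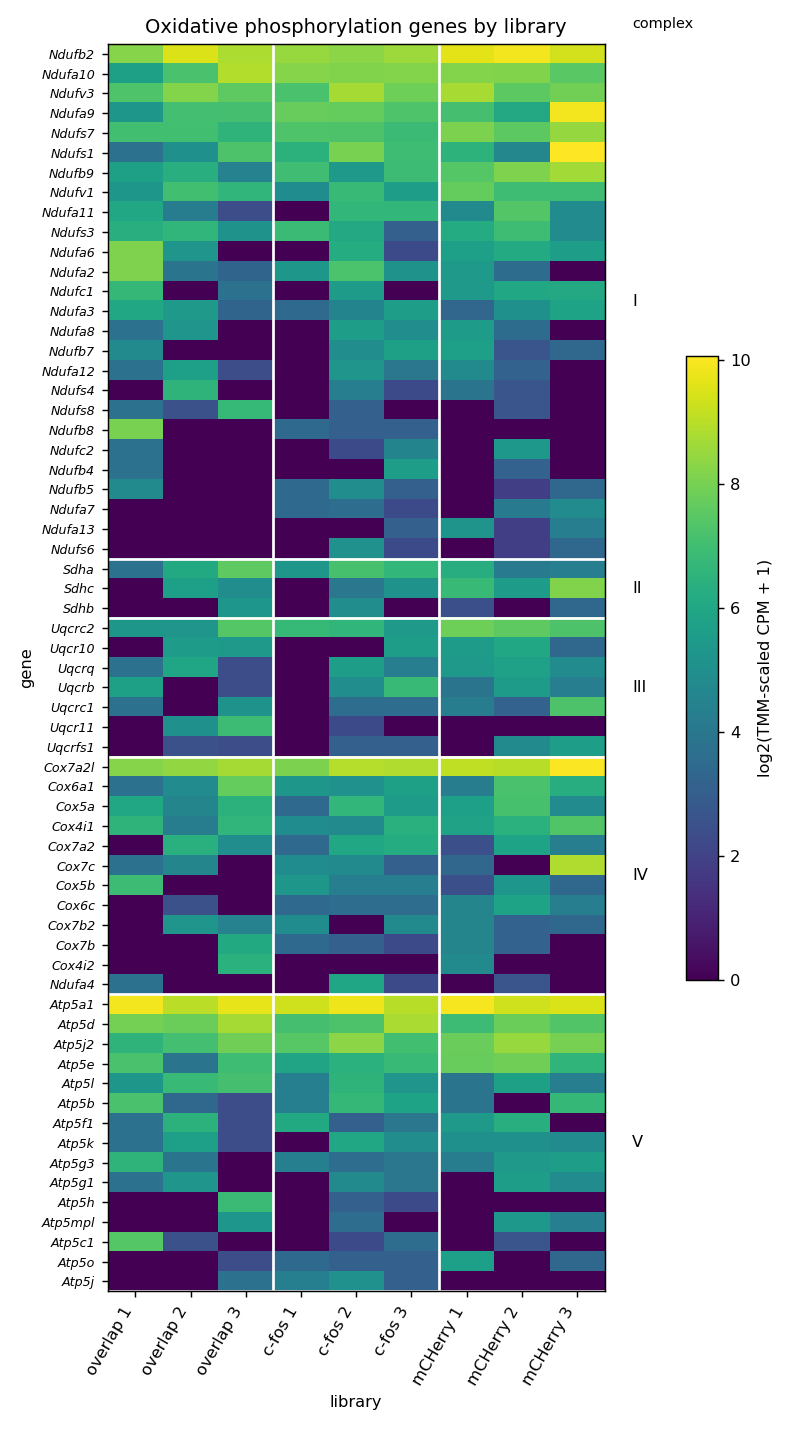
Level of 63 of the 64 genes with 10 or more counts (down the page, grouped by complex I to V) in each of the 9 libraries (across, overlap, c-fos and mCHerry), as log2 of TMM-scaled CPM + 1. A few rows, such as Ndufb2, Cox7a2l and Atp5a1, are bright in every library, while most rows hold dark cells, which are libraries with no counts.

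The subunits of 1 complex are needed in fixed proportions, but their counts were far apart. Within complex I, Ndufb2 had 1121 counts over the 9 libraries, whereas Ndufa1 and Ndufb6 had 1 each. Within complex V, Atp5a1, the alpha subunit of the catalytic head, had 1360 counts and Atp5b, the beta subunit that stands beside it in equal number, had 73. Cox8a, Cox6b1 and Uqcrh, which are subunits made in all tissues, had 5, 6 and 9 counts. They are given as counts, to show how well each gene was sampled, and are not used to rank the genes by expression.

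Counts went with the length of the annotated mRNA. Among the 52 genes whose longest mRNA in the annotation (GENCODE M21) was under 1000 bases, the median was 27.5 counts and 17.3% had 100 or more. The 25 genes from 1000 to under 2000 bases had a median of 38 counts, and 7 of them had 100 or more. The 8 genes of 2000 bases or more had a median of 226.5 counts, and 6 of them had 100 or more. Spearman's rho across the 85 genes, which share the same libraries, was 0.345, against 0.462 across 21919 protein-coding genes. Longer genes thus had more counts in both sets. The same 3 steps of length in all protein-coding genes gave 5.16%, 10.8% and 28.2% with 100 or more counts.

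**Figure D2:**
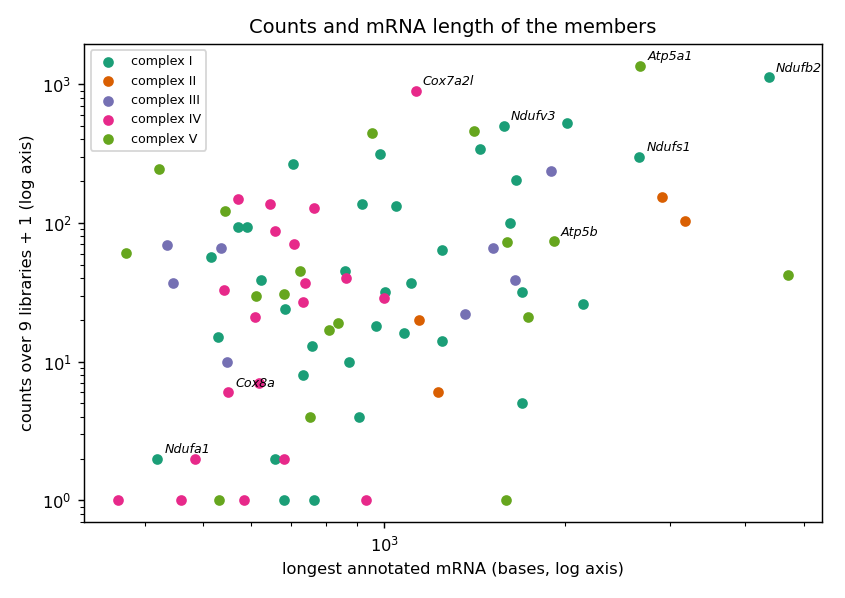
Counts over the 9 libraries plus 1 (vertical, log axis) against the longest annotated mRNA in bases (horizontal, log axis), 1 point a gene, coloured by complex. Genes of 2000 bases or more lie mostly above 100 counts, while Ndufa1 and Cox8a are short genes with few counts, and longer genes such as Ndufv2 and Sdhd also have few.

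Many of the thinly counted genes were counted mainly in 1 library. Of the 56 genes with 20 or more counts, 13 had over 50% of them in 1 library, 23.2%, against 17.4% of the 10693 protein-coding genes with as many counts. All except Cox7c lay between 20 and 49 counts, where the share was 12 of 21 genes, 57.1%, against 37.1% of all protein-coding genes in that range. Overlap 3 was the leading library of 5 of the 13 genes. It held 27 of the 30 counts of Atp5h, a subunit of the stalk that holds the head of the ATP synthase, 28 of the 36 counts of Uqcr11 and 25 of the 31 counts of Ndufs8, an iron-sulfur subunit of complex I. Elsewhere, Ndufa4 had 16 of its 20 counts in c-fos 2, Ndufb8 had 20 of 25 in overlap 1, and Cox7c had 49 of 69 in mCHerry 3. None of the 22 genes with 100 or more counts was of this kind, against 5.48% of all protein-coding genes.

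Summed over all 85 genes, the level was 5153, 4238 and 5395 TMM-scaled CPM in overlap libraries, 3524, 5709 and 4529 in c-fos libraries and 5891, 5945 and 8379 in mCHerry libraries. Every mCHerry library thus lay above every other library on this scale, mCHerry 1 and 2 by a small margin over c-fos 2. The ratio of group means was 0.681 for c-fos over mCHerry and 0.731 for overlap over mCHerry. As CPM of the total count the sums were 4373, 4073 and 4499 in overlap, 3318, 5110 and 3963 in c-fos and 4970, 5141 and 4465 in mCHerry. On that scale the groups ran into each other, and mCHerry 3 lay below overlap 3 and c-fos 2, with ratios of 0.850 for c-fos over mCHerry and 0.888 for overlap over mCHerry. The separation of the groups in this sum therefore depended on the scale.

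By complex, the sums in TMM-scaled CPM differed in how far the groups stood apart. For complex I they were 2472, 2131 and 1814 in overlap, 1714, 2632 and 1944 in c-fos and 2873, 2672 and 4322 in mCHerry, so that every mCHerry library lay above every other, mCHerry 2 by a small margin over c-fos 2. As CPM of the total count, complex I gave 2098, 2048 and 1513 in overlap, 1613, 2356 and 1701 in c-fos and 2423, 2311 and 2303 in mCHerry. On that scale c-fos 2 lay among the mCHerry libraries, while every overlap library stayed below them. Complex III gave 130.8, 207.5 and 377.2 in overlap, 107.1, 198.1 and 243.9 in c-fos and 346.6, 390.6 and 415.2 in mCHerry, where every c-fos library was below every mCHerry library and overlap 3 reached into the mCHerry range. As CPM of the total count, complex III gave 100.8, 177.4 and 213.4 in c-fos against 292.3, 337.7 and 221.3 in mCHerry, which kept that order by a narrow margin. The sums of complexes II and IV ran into each other between all groups. In complex V there was no such order: it averaged 1689 ± 412.6 in overlap, 1472 ± 339.1 in c-fos and 1645 ± 147.3 in mCHerry (SD, n = 3 each). The sums follow the few genes with most counts and were given no test.

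**Figure D3:**
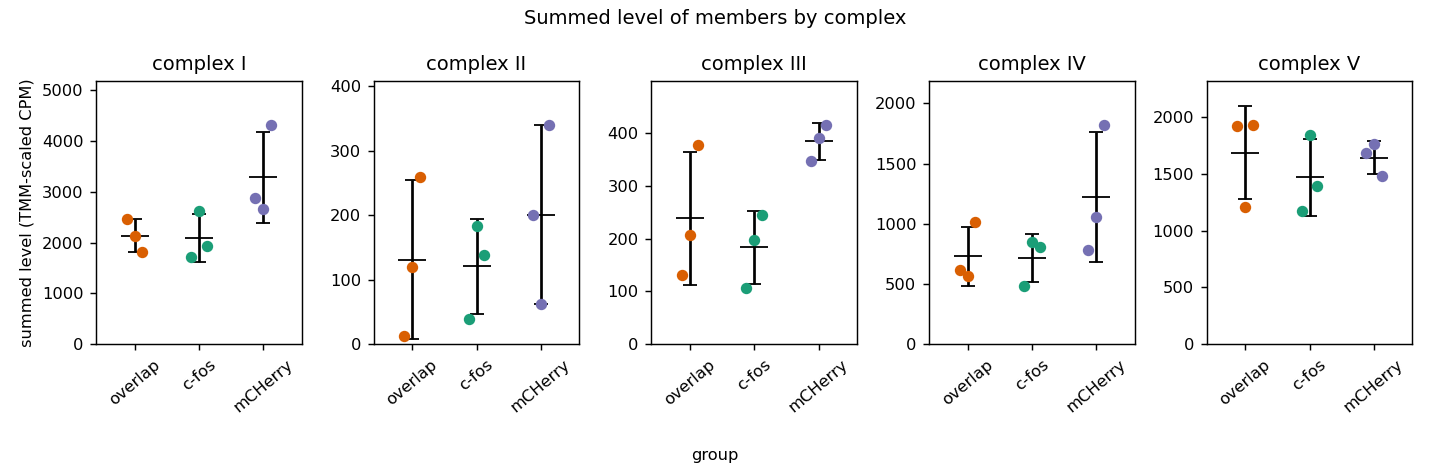
Summed level of the genes of each complex in TMM-scaled CPM (vertical, from 0, scale differs between panels) by group, 1 point a library, with the mean (dash) and SD (bar) of 3 libraries. In complexes I and III all mCHerry points lie above all c-fos points, and in complex V the 3 groups share 1 range.

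Of the 85 genes, 32 had enough counts for the test across genes: 14 of complex I, 2 of complex II, 4 of complex III, 5 of complex IV and 7 of complex V. The fit (edgeR's quasi-likelihood test on all 9 libraries, Benjamini-Hochberg adjustment) covered 7959 genes. Libraries of 1 group differed widely, with a common dispersion of 0.735, a coefficient of variation of 0.857. No animal is given for any library, so the p-values rest on library-to-library spread alone, part or all of which may be technical.

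The first comparison set c-fos cells against mCHerry cells. None of the 32 genes changed past the threshold of an adjusted p of 0.05, nor did any of the 7959 genes (0%), and the smallest adjusted p among the 32 was 0.567 in edgeR. At an unadjusted p under 0.05 there were 2 of the 32, Ndufb2 and Sdhc, 6.25%, against 632 of all genes, 7.94%. DESeq2 called 3 genes in all and none of the 32. Fold changes of the 32 were mostly below 0, 24 of 32, with a median log2 fold change of -0.64, against -0.01 over all genes tested. In 7 of the 32, 21.9%, every c-fos library lay below every mCHerry library on the TMM scale, against 6.82% of all genes tested. In none did every c-fos library lie above, against 9.02% of all genes. These 7 were Ndufb2, Ndufb9, Ndufs7 and Ndufv1 of complex I, Sdhc of complex II, Uqcrc2 of complex III and Cox7a2l of complex IV, with none from complex V. As CPM of the total count, a scale added to this count after seeing the data, there were 4 of 32, 12.5%, against 3.74% of all genes tested. These were Ndufb2, Ndufb9, Ndufs7 and Sdhc, while Ndufv1, Uqcrc2 and Cox7a2l lost the order, and Ndufa10 had every c-fos library above, 1 of 32, against 10.5% of all genes. Medians were -0.96 in complex I, -0.85 in complex II, -1.01 in complex III, -0.75 in complex IV and -0.17 in complex V. When scaling used just the 200 most abundant genes, the median of the 32 was -0.29 and that of all genes 0.34. Single libraries moved the median too: it was -0.33 without c-fos 1 and -0.19 without mCHerry 2.

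The second comparison set overlap cells against mCHerry cells. None of the 32 genes changed past the threshold, against 2 of 7959 genes, 0.0251%, and the smallest adjusted p among the 32 was 0.240 in edgeR. Unadjusted p-values under 0.05 were found for 3 genes, Ndufb9 and Ndufs1 among them, 9.38% of the 32, against 1114 of all genes, 14.0%. DESeq2 called 188 genes in all and none of the 32. The median log2 fold change was -0.47, against -0.05 over all genes, and 23 of 32 were negative, but when scaling used just the 200 most abundant genes the median of the 32 was 0.25 and that of all genes 0.64. Without mCHerry 2 the median was -0.18. Every overlap library lay below every mCHerry library for Cox7a2l, Ndufb9 and Ndufs7, 9.38%, against 11.0% of all genes tested. Every overlap library lay above for Atp5d alone, 3.12%, against 6.37% of all genes. Both shares were near or under those of all genes. The same 4 genes were found as CPM of the total count, against 6.61% of all genes with every overlap library below and 7.11% with every one above. Medians by complex were -0.68 in complex I, -0.50 in complex II, -0.69 in complex III, -0.34 in complex IV and -0.02 in complex V.

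The third comparison set overlap cells against c-fos cells. Again none of the 32 genes changed past the threshold, nor any of the 7959 genes (0%), and the smallest adjusted p among the 32 was 0.982 in edgeR. No gene of the 32 had an unadjusted p under 0.05, against 406 of all genes, 5.1%. DESeq2 called 6 genes in all and none of the 32. Negative fold changes numbered 13 and positive ones 19, with a median of 0.14, against 0.02 over all genes. It was -0.16 without c-fos 1 and -0.11 without mCHerry 3 and overlap 1, so no direction is given. Every overlap library lay below every c-fos library for Ndufa9 alone, against 8.61% of all genes, and none of the 32 had every overlap library above, against 3.96% of all genes. Both findings were the same as CPM of the total count, against 8.73% and 3.91% of all genes. The first and second comparisons share the mCHerry libraries, so their like medians are not independent of each other. Without mCHerry 3 and overlap 1 together, the medians of the first and second comparisons were -0.53 and -0.50.

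**Figure D4:**
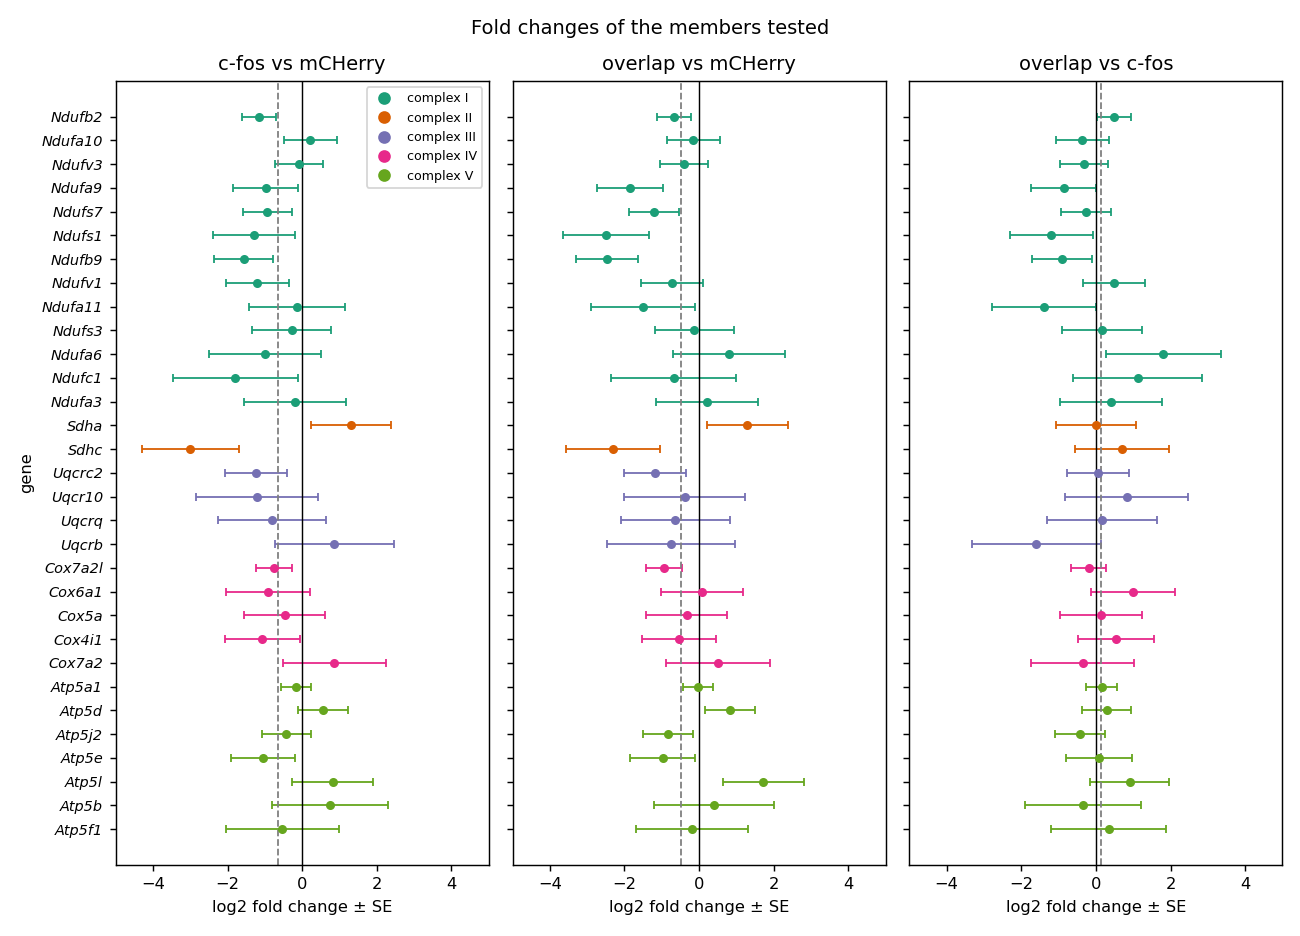
Log2 fold change (horizontal) with its standard error (bar) of 31 of the 32 genes tested (down the page) in the 3 comparisons, coloured by complex. The solid line marks 0 and the dashed line the median of all 32 genes, -0.64 for c-fos against mCHerry, -0.47 for overlap against mCHerry and 0.14 for overlap against c-fos.

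Summed levels of some cell type markers also differed between the groups on the TMM scale. The 5 neuronal markers summed to 2276, 2094 and 1759 TMM-scaled CPM in overlap, 2210, 2415 and 2237 in c-fos and 3288, 2893 and 2538 in mCHerry. This sum was led by Syt1, a protein of synaptic vesicles, with 354, 570 and 168 counts in mCHerry. The fold changes of the 5 markers did not share a direction: 4 were positive for c-fos against mCHerry, with a median log2 fold change of 0.11, and 3 for overlap against mCHerry, with a median of 0.08. The 6 genes of glutamatergic neurons summed to between 222.3 and 877.3 in overlap, 301.8 and 833.7 in c-fos and 1085 and 1449 in mCHerry. For GABAergic neurons the 6 genes, of which Vip had no counts, summed to between 73.79 and 366.2 in overlap, 198.1 and 370 in c-fos and 47.18 and 86.64 in mCHerry. Only 1 of them was tested. Slc32a1 had the most counts, 30, 26 and 30 in c-fos and 11, 4 and 0 in mCHerry. Pvalb went the other way, with 0, 0 and 1 in c-fos and 0, 5 and 2 in mCHerry. These sums were thin, and their mCHerry mean of 60.8 was below that of the 10 spermatocyte genes, 76.1. On the TMM scale the mCHerry libraries had the highest sums for neuronal and glutamatergic genes, and for GABAergic genes they lay below all c-fos libraries. As CPM of the total count, the neuronal sum of mCHerry 3, at 1353, was the lowest of all 9. Its glutamatergic sum, at 578.3, was below those of overlap 2, overlap 3, c-fos 2 and c-fos 3 on that scale, so neither order held there. The 5 genes of the basolateral amygdala, of which 3 were tested, summed to 366.2, 244.4 and 207.7 TMM-scaled CPM in overlap, 340.8, 385.1 and 454.1 in c-fos and 428.6, 468.7 and 1283 in mCHerry. Every overlap library was below every mCHerry library, also as CPM of the total count, and on the TMM scale the c-fos libraries ran into both groups. The high sum of mCHerry 3 came mostly from Cdh13, with 87 of its 136 counts, against 11 of 94 in mCHerry 1 and 5 of 174 in mCHerry 2. All 3 tested genes had negative fold changes in both comparisons with mCHerry, with median log2 fold changes of -0.64 for c-fos and -1.75 for overlap, and none passed the threshold in edgeR. These medians are not given without mCHerry 3. The 5 oligodendrocyte genes summed to between 2746 and 4895 in overlap, 2807 and 4363 in c-fos and 3510 and 6931 in mCHerry. The sums of astrocytes, microglia, and endothelial and mural cells ran into each other between the groups, with P2ry12, a defining gene of microglia, at 0. The part of any of these in the values of the respiratory genes was not tested.

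In complex I, the results turned on a few well-counted subunits. Ndufb2 (ENSMUSG00000002416), an accessory subunit of the membrane arm, had 301, 752 and 454 TMM-scaled CPM in overlap, 370, 322 and 390 in c-fos and 816, 946 and 660 in mCHerry. All c-fos libraries were low and alike, all mCHerry libraries were higher, and overlap 2 reached into the mCHerry range. Its log2 fold change was -1.16 ± 0.46 (SE) for c-fos against mCHerry, where edgeR gave an adjusted p of 0.567. Over the alternatives tried it lay between -1.34 and -0.82. It overlaps Braf on the other strand and Gm42420 on its own strand, among other genes. The labels do not say whether counting used the strand. Longer by annotation than any other tested gene of complex I, with an mRNA of 4371 bases, it was also the most counted one.

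Ndufb9, another accessory subunit of the membrane arm, had 52.3, 78.4 and 21.2 TMM-scaled CPM in overlap, 127, 41.1 and 120 in c-fos and 169, 277 and 406 in mCHerry. Every mCHerry library was above every other library, and the overlap and c-fos libraries ran into each other. The log2 fold change was -2.47 ± 0.83 (SE) for overlap against mCHerry, with an unadjusted p of 0.0087 and an adjusted p of 0.240 in edgeR. It was -1.57 ± 0.79 for c-fos against mCHerry, with an adjusted p of 0.666 in edgeR. Over the alternatives the first of these stayed between -3.08 and -1.79, and its smallest adjusted p was 0.0891, in DESeq2.

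Core subunits of complex I carry the redox centres. Ndufs7, which holds the last iron-sulfur cluster before ubiquinone, had 131, 129 and 93.2 TMM-scaled CPM in overlap, 156, 153 and 116 in c-fos and 274, 186 and 359 in mCHerry. All mCHerry values were above all others. Ndufv1, which binds NADH, had 39.2, 129 and 97.5 in overlap, 29.2, 112 and 48.8 in c-fos and 205, 121 and 123 in mCHerry. Here the c-fos libraries lay below the mCHerry libraries by a narrow margin, which was lost as CPM of the total count, and overlap 2 lay among the mCHerry libraries. Ndufs7 and Ndufv1 were described after their values had been seen, as genes whose groups stood apart, and their adjusted p-values for c-fos against mCHerry were 0.830 and 0.826 in edgeR.

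Other subunits of complex I followed 1 library. Ndufs1, the largest iron-sulfur subunit, had 13.1, 32.3 and 153 TMM-scaled CPM in overlap, 87.6, 262 and 124 in c-fos and 91.2, 24.2 and 1076 in mCHerry. mCHerry 3 was far above the rest, with 114 of the 299 counts of the gene. Its log2 fold change of -2.49 ± 1.16 (SE) for overlap against mCHerry, with an adjusted p of 0.350 in edgeR, became 0.24 without mCHerry 3. Ndufa9, an accessory subunit where the arms of the complex meet, had 39.2, 134 and 136 in overlap, 214, 206 and 158 in c-fos and 137, 67.3 and 953 in mCHerry. Again mCHerry 3 alone was high, and the overlap libraries lay under all c-fos libraries. For overlap against mCHerry its log2 fold change of -1.84 ± 0.89 (SE), with an adjusted p of 0.371 in edgeR, became 0.03 without mCHerry 3.

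Ndufa6 and Ndufa11 were among the genes with the smallest p-values for overlap against c-fos, at adjusted p-values of 0.982 in edgeR. Ndufa6, an accessory subunit of the matrix arm, had 21, 8 and 0 counts in overlap, 0, 20 and 1 in c-fos and 11, 26 and 5 in mCHerry. Most counts of the overlap group sat in 1 library, as did most of the c-fos group, and the log2 fold change of 1.80 ± 1.54 (SE) became -0.58 without overlap 1. Ndufa11, an accessory subunit of the membrane arm, had 5, 4 and 1 counts in overlap, 0, 27 and 27 in c-fos and 6, 62 and 3 in mCHerry. The log2 fold change, -1.38 ± 1.39 (SE), was smaller than its error. The most counted of the rest, Ndufa10 and Ndufv3, both accessory subunits, did not separate the groups. Ndufa10 averaged 225 ± 225 TMM-scaled CPM in overlap, 294 ± 9.06 in c-fos and 253 ± 64.1 in mCHerry (SD, n = 3 each). Ndufv3 averaged 214 ± 72.0 in overlap, 267 ± 141 in c-fos and 287 ± 126 in mCHerry (SD, n = 3 each).

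**Figure D5:**
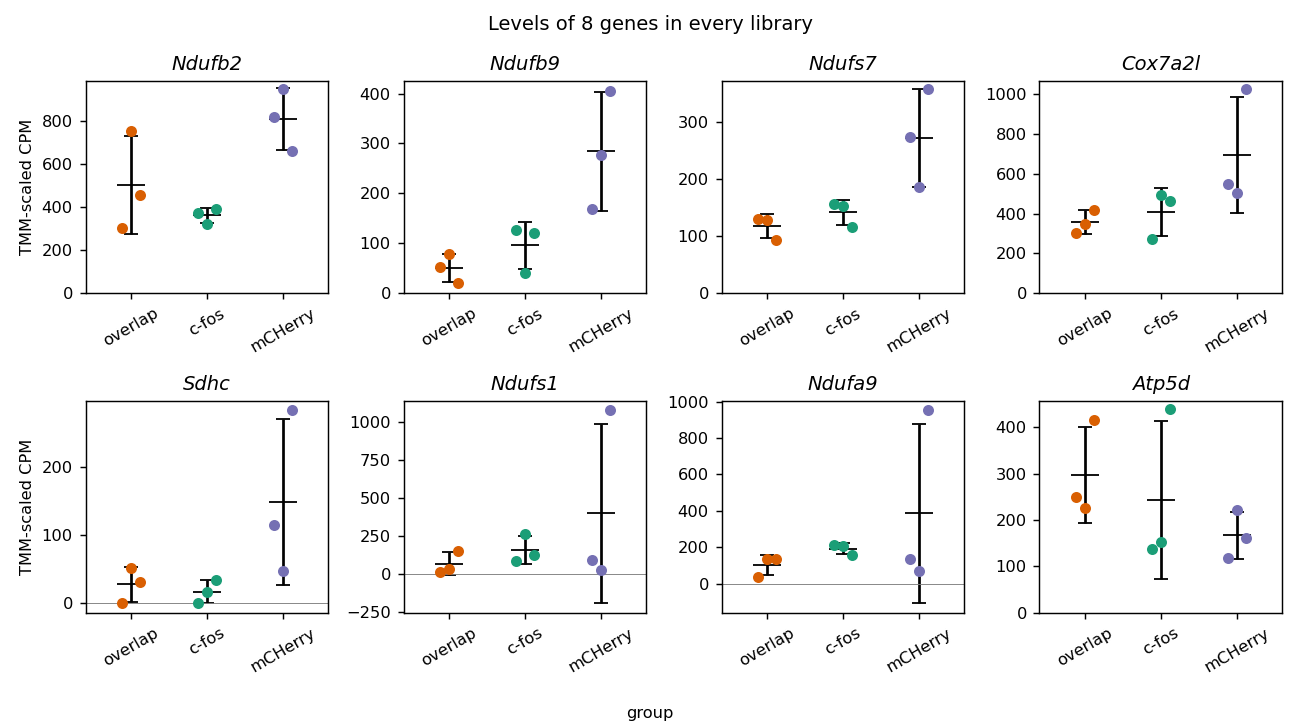
TMM-scaled CPM (vertical) of 8 genes by group (horizontal), 1 point a library, with the mean (dash) and SD (bar) of 3 libraries. Ndufb2, Ndufb9, Ndufs7 and Cox7a2l have every mCHerry point above every c-fos point, the high means of Ndufs1 and Ndufa9 in mCHerry each come from 1 library, and Atp5d has its lowest point in mCHerry.

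Complex II, also an enzyme of the citrate cycle, is built from 4 subunits, all encoded in the nucleus. Sdhc, 1 of the 2 subunits that anchor it in the membrane, had 0, 11 and 7 counts in overlap, 0, 4 and 9 in c-fos and 25, 17 and 30 in mCHerry. As TMM-scaled CPM these were 0, 50.7 and 29.7 in overlap, 0, 14.9 and 33.8 in c-fos and 114, 45.8 and 283 in mCHerry. All c-fos libraries lay below all mCHerry libraries, and overlap 2 lay among the mCHerry libraries. For c-fos against mCHerry the log2 fold change was -3.0 ± 1.29 (SE), with an unadjusted p of 0.0341 and an adjusted p of 0.573 in edgeR. It was -2.19 without mCHerry 3.

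Sdha, the flavoprotein that oxidises succinate, had 1, 15 and 45 counts in overlap, 4, 37 and 27 in c-fos and 17, 6 and 2 in mCHerry. Its level was 91.0 ± 90.8 TMM-scaled CPM in overlap, 92.9 ± 50.2 in c-fos and 37.5 ± 34.7 in mCHerry (SD, n = 3 each), and the groups ran into each other. The log2 fold change for c-fos against mCHerry was 1.30 ± 1.08 (SE), opposite in sign to that of Sdhc, with an adjusted p of 0.884 in edgeR. The difference between Sdha and Sdhc was not tested. Sdhb, the iron-sulfur subunit, had 19 counts, 9 in overlap 3 and 8 in c-fos 2, and Sdhd, the other anchor, had 5.

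Complex III was led by Uqcrc2, a core protein on its matrix side. It had 39.2, 36.9 and 170 TMM-scaled CPM in overlap, 107, 97.2 and 41.3 in c-fos and 228, 191 and 151 in mCHerry. Every c-fos library was below every mCHerry library on this scale but not as CPM of the total count, and overlap 3 was between mCHerry 2 and mCHerry 3. Its adjusted p for c-fos against mCHerry was 0.814 in edgeR. Uqcr10, Uqcrq and Uqcrb, small accessory subunits, had 68, 65 and 65 counts, with 0 in at least 1 library each and no separation of the groups. Uqcrfs1, the Rieske iron-sulfur protein, had 21 counts and was not tested.

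Complex IV was led by Cox7a2l, a protein related to its subunit 7a that joins complexes III and IV into supercomplexes. It had 301, 350 and 420 TMM-scaled CPM in overlap, 273, 494 and 462 in c-fos and 547, 504 and 1029 in mCHerry. Every mCHerry library was above every other library, though mCHerry 2 and c-fos 2 were close and changed places as CPM of the total count, and mCHerry 3 was far above the rest. The adjusted p was 0.796 for c-fos against mCHerry and 0.404 for overlap against mCHerry in edgeR. With 897 counts and no listed overlap with another gene, it was among the best sampled of the 85.

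The catalytic core of complex IV is encoded by mitochondrial DNA, and the nuclear subunits around it were thinly counted. Cox4i1, Cox5a and Cox6a1, each the form made in most tissues, had 127, 137 and 147 counts. Cox4i1 averaged 69.2 ± 44.0 TMM-scaled CPM in overlap, 46.0 ± 31.7 in c-fos and 100 ± 54.3 in mCHerry (SD, n = 3 each). Cox5a averaged 59.1 ± 33.4 in overlap, 51.9 ± 46.0 in c-fos and 72.8 ± 59.2 in mCHerry (SD, n = 3 each). Neither separated the groups. Cox6a1 had 1, 6 and 48 counts in overlap, 4, 9 and 14 in c-fos and 4, 53 and 8 in mCHerry. Its log2 fold change of 1.00 ± 1.13 (SE) for overlap against c-fos, with an adjusted p of 0.982 in edgeR, rested on overlap 3 and became -0.93 without that library.

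Of 8 tissue-restricted isoforms, 6 had at most 1 count, and the exceptions were Cox7b2 and Cox4i2. Cox6a2, Cox7a1 and Cox8b, the forms of heart and skeletal muscle, had 1, 1 and 0 counts over the 9 libraries. Cox6b2 and Cox8c, forms known from testis, had no counts. Cox7b2, another form known from testis, had 32 counts in 7 libraries, beside 28 of the common form Cox7b. The counts of Cox7b2 were 0, 8 and 5 in overlap, 3, 0 and 7 in c-fos and 5, 3 and 1 in mCHerry, with no library far above the rest. Cox4i2, a form of lung and of cells low in oxygen, had 20 counts in overlap 3 and 6 in mCHerry 1, and none elsewhere. Ndufa4l2, a form known from low oxygen and from mural cells, had none.

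Complex V was led by Atp5a1, which had 942, 526 and 839 TMM-scaled CPM in overlap, 652, 908 and 514 in c-fos and 971, 646 and 717 in mCHerry. All 3 groups covered the same range, with averages of 769 ± 217 in overlap, 692 ± 200 in c-fos and 778 ± 171 in mCHerry (SD, n = 3 each). It was the most counted of the 85 genes, and its standard error of 0.40 on the log2 scale was the same in the 3 comparisons. Atp5j2 and Atp5e, subunits of the membrane part and of the central stalk, had 441 and 245 counts. Atp5j2 averaged 154 ± 75.0 TMM-scaled CPM in overlap, 208 ± 101 in c-fos and 280 ± 76.9 in mCHerry (SD, n = 3 each), and Atp5e averaged 93.5 ± 69.8 in overlap, 85.7 ± 27.1 in c-fos and 180 ± 74.7 in mCHerry. Neither separated the groups.

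Atp5d and Atp5l had positive fold changes against mCHerry. Atp5d, the delta subunit of the central stalk, had 248, 226 and 415 TMM-scaled CPM in overlap, 136, 153 and 439 in c-fos and 119, 221 and 160 in mCHerry. Every overlap library was above every mCHerry library, by a small margin between overlap 2 and mCHerry 2, and c-fos 3 was the highest of all. The log2 fold change was 0.83 ± 0.67 (SE) for overlap against mCHerry, with an adjusted p of 0.620 in edgeR. Without overlap 3 it was 0.39. For c-fos against mCHerry it was 0.55 ± 0.67 (SE), with an adjusted p of 0.951 in edgeR, or -0.17 without c-fos 3. Atp5l, the g subunit of the membrane part, had 39.2, 111 and 136 in overlap, 19.5, 93.5 and 37.5 in c-fos and 13.7, 51.2 and 18.9 in mCHerry. The overlap group was high in 2 of its libraries and met the mCHerry range in the other. For overlap against mCHerry the log2 fold change was 1.73 ± 1.09 (SE), with an adjusted p of 0.511 in edgeR. Atpif1, which codes for the inhibitor of the ATP synthase and lies outside the naming rule, had 389 counts, 201 of them in mCHerry 2.

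The rest of the pathway was described by 6 lists of genes outside the naming rule, and no gene of these lists passed the threshold in any comparison in edgeR. The 13 subunits encoded by mitochondrial DNA had 0 counts in every library, so they were not analysed here. Of 42 assembly factors, which build the complexes and insert their cofactors, 16 were tested. For c-fos against mCHerry 10 had positive and 6 negative fold changes, with a median of 0.19, and for overlap against mCHerry 8 and 8, with a median of 0.40. Of 16 citrate cycle enzymes, which supply the electrons, 12 were tested, with 5 positive and 7 negative and a median of -0.29 for c-fos against mCHerry, and 4 and 8 with a median of -0.60 for overlap against mCHerry. Their summed level was 1321, 1324 and 1835 TMM-scaled CPM in overlap, 1431, 1978 and 2203 in c-fos and 2508, 2125 and 2048 in mCHerry. All overlap libraries were thus below all mCHerry libraries, but as CPM of the total count mCHerry 3, at 1091, was the lowest of all 9. Of the 6 carriers of nucleotides and phosphate, which bring in ADP, 4 were tested, with medians of 0.63 for c-fos against mCHerry and 0.63 for overlap against mCHerry. Of 4 electron carriers and subunits that the naming rule misses, only Cyc1, the cytochrome c1 of complex III, was tested. It had log2 fold changes of -0.45 for c-fos against mCHerry and -1.16 for overlap against mCHerry. For overlap against c-fos the medians were -0.13 for assembly factors, -0.20 for citrate cycle enzymes and 0.11 for the carriers of nucleotides and phosphate, and the value of Cyc1 was -0.71.

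The 12 transcriptional regulators of mitochondrial genes had their highest summed levels in overlap cells. Their sum was 1151, 664.1 and 618.7 TMM-scaled CPM in overlap, 321.3, 351.4 and 484.1 in c-fos and 364.8, 506.4 and 500.1 in mCHerry. Every overlap library lay above every other library, also as CPM of the total count, where overlap had 976.8, 638.2 and 515.9 and the highest other library 437.9. The list was led by Nrf1 and Ppargc1a. Of the 12, 5 were tested. For overlap against mCHerry 3 were positive and 2 negative, with a median of 0.81. For overlap against c-fos 4 were positive and 1 negative, with a median of 0.88, and for c-fos against mCHerry the median was -0.96. Ppargc1b went the other way, at -0.73 for overlap against mCHerry and -1.08 for overlap against c-fos. Ppargc1a, a coactivator that drives the making of mitochondria, had 47, 11 and 54 counts in overlap, 2, 11 and 10 in c-fos and 12, 29 and 13 in mCHerry. It was high in overlap 1 and overlap 3, while overlap 2, at 50.7 TMM-scaled CPM, lay above the c-fos libraries, at 19.5, 41.1 and 37.5, and below the mCHerry libraries, at 54.7, 78.1 and 123. In log2 fold change it was at 1.80 for overlap against mCHerry and 3.10 for overlap against c-fos, with adjusted p-values of 0.383 and 0.808 in edgeR. Nrf1, whose motif is shown above, had 19, 81 and 44 counts in overlap, 10, 40 and 50 in c-fos and 33, 58 and 11 in mCHerry, with adjusted p-values of 0.546 for overlap against mCHerry and 0.982 for overlap against c-fos in edgeR. The other tested regulators, Ppargc1b, Pprc1 and Tfam, had no adjusted p under 0.788 in any comparison in edgeR. The relation between these levels and those of the respiratory genes was not tested.

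Part of the counts may be shared with neighbours. In the annotation, 38 of the 85 genes, 44.7%, overlap another gene, 13 of them one on the same strand and 30 one on the other strand. Among the genes described, Ndufs1 overlaps Eef1b2, Atp5a1 overlaps Haus1 and Cox4i1 overlaps Emc8, each on the other strand. Also on the other strand, Atp5d overlaps Cbarp, Uqcrc2 overlaps Pdzd9, Ndufa11 overlaps Vmac and Sdha overlaps the pseudogene Gm16125. On their own strand, Ndufb9 overlaps the predicted gene Gm49356, Cox4i1 overlaps Gm20388 and Ndufb2 overlaps Gm42420. No overlap was listed for Sdhc, Cox7a2l, Ndufs7, Ndufv3, Atp5j2, Atp5e, Ndufa6 or Cox6a1. Of 12 further genes that match the naming rule but are not protein-coding, 11 are pseudogenes, and together they held 26 counts.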

How the data were processed

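The deposited table holds raw counts per gene and library, made by the authors with Trim Galore, STAR, UMI-tools and featureCounts on build mm9, per the submitters' processing notes. Their versions, order and strand setting are unknown here, as is any collapse by molecular identifier, so limits from 0 counts cover counting error only. Column names matched the sample titles. Gene names, gene types, mRNA lengths and gene overlaps came from another build (GRCm38, GENCODE M21), so no coordinates of genes are given, and promoters are those of RefSeq GRCm38.p6. All 9 libraries entered 1 fit in edgeR 4.0.16 under R 4.3.3, with TMM scaling and filterByExpr at a minimum count of 10. Levels are CPM over the tested genes. Standard errors were computed as the log2 fold change over the root of F. The fit was also run on simulated data with planted changes, and how many of those it called is not given here. Genes were placed in complexes by symbol, Ndufa4 and Ndufa4l2 in complex IV. Named were the 4 most counted genes of each complex, the 3 of smallest p per comparison and direction, and tissue-restricted isoforms. Genes whose groups stood apart were added after their values were seen. The members, lists and rules were chosen with earlier results of these data known. Alternatives were other scalings, filters, DESeq2 1.42.0, a replicate block, 2 groups only and leaving out libraries. The values of 1 gene of complex I are not reported here, though it enters the counts, sums and medians.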

Additional observations from a re-analysis of the deposited data

How the results depend on the processing

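None of the respiratory genes passed the threshold under any of the 18 settings tried. The count of all genes past it was less stable. For c-fos against mCHerry, 0 in the analysis reported, it was 1 with upper quartile scaling, with scaling on just the 200 most abundant genes, with a minimum count of 20 and without mCHerry 3 and overlap 1 together, 3 with DESeq2, 253 with no filter, and 0 to 1 leaving out 1 library. For overlap against mCHerry, 2 in the analysis reported, it was 0 with RLE scaling, upper quartile scaling, the 200 genes, a minimum count of 20, without mCHerry 3 and overlap 1 together and with the 2 groups only, 188 with DESeq2, 344 with no filter, and 2 to 20 leaving out 1 library (20 without mCHerry 3, 16 without mCHerry 1 and 5 without mCHerry 2). For overlap against c-fos, 0 in the analysis reported, it was 1 without mCHerry 3 and overlap 1 together and with the 2 groups only, 6 with DESeq2, 41 with no filter, and 0 to 9 leaving out 1 library, 9 without mCHerry 3. The median of the respiratory genes was -0.29 with the 200 genes, -0.20 with no filter, -0.97 with the 2 groups only and -0.80 to -0.19 leaving out 1 library for c-fos against mCHerry. It was 0.25 with the 200 genes and -0.70 to -0.18 leaving out 1 library for overlap against mCHerry. It was 0.47 with the 200 genes, -0.11 without mCHerry 3 and overlap 1 together and -0.16 to 0.25 leaving out 1 library for overlap against c-fos. The 200 genes moved the median of all genes to 0.34, 0.64 and 0.38 in the 3 comparisons. As CPM of the total count, chosen after seeing the data, 4 of the respiratory genes in place of 7 had every c-fos library below every mCHerry library, and 1 in place of 0 had every one above. The other 4 counts of groups that do not overlap kept their values. Of 18 results on single genes, recomputed 315 times, 8 values changed sign. Leaving out 1 library, Atp5d for c-fos against mCHerry ran between -0.17 (without c-fos 3) and 0.81, Cox6a1 for overlap against c-fos between -0.93 (without overlap 3) and 1.44, and Ndufa6 for overlap against c-fos between -0.58 (without overlap 1) and 5.06. For overlap against mCHerry, Ndufa9 ran between -2.35 and 0.029 (without mCHerry 3), and Ndufs1 between -4.25 and 0.24 (without mCHerry 3). Without mCHerry 3 and overlap 1 together, Ndufa6 was at -0.58, Ndufa9 at 0.36 and Ndufs1 at 0.66 in those comparisons. The causes were not tested, other than that fewer or more genes are tested when the filter changes. Same-numbered libraries correlated between -0.03 and 0.04 in their deviations from the group means, and libraries of different number between -0.04 and 0.03. This gave no sign of pairing by number, but counts this noisy cannot exclude it. With the replicate number as a block 0, 10 and 3 genes passed in the 3 comparisons and none of the respiratory genes. With between 0 and 1360 counts a gene over 9 libraries, depth limits all single-gene values.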
